A study of Bos taurus with 8 samples.

Results

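The FGF, WNT, BMP, TGF-beta, ERBB and PDGF signalling genes of newborn calf lung were compared between cloned and normal calves. Lung total RNA was measured from 4 cloned Holstein calves, which had died of respiratory failure in their first 4 days, and from 4 healthy, naturally conceived Holstein calves killed at 4 days. Each animal had 1 array of a 1-colour Agilent bovine design with the dye Cy3. The labels give 4 days for all 8 and do not say whether the clones shared a donor cell line. The members were chosen by gene symbol: FGF, FGFR, WNT, FZD, SFRP, DKK, BMP (without BMP1, a protease), BMPR, TGFB, TGFBR, SMAD and GREM genes, with ERBB2, ERBB3, ERBB4, NRG1, PDGFA, PDGFB, PDGFRA and PDGFRB. A bovine RefSeq table holds 100 such symbols, 57 were matched to at least 1 of 119 probes, and 48 were detected, meaning that a probe passed Agilent's well-above-background call on 4 or more of the 8 arrays, as did 9867 genes in all. Each gene is represented by its brightest probe, and of the 48 probes 46 were well above background on all 8 arrays. ERBB2, ERBB4, FGFR2, FGF10, SMAD3 and BMPR2 had no matched probe and were not analysed here.

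These families carry messages between the epithelium and the mesenchyme of the lung. Secreted FGF, WNT, BMP, TGF-beta and PDGF ligands bind receptors on neighbouring cells. FGF, ERBB and PDGF receptors are tyrosine kinases, Frizzled proteins relay WNT signals to beta-catenin or to cell polarity, and BMP and TGF-beta receptors phosphorylate SMAD proteins that enter the nucleus. In the developing lung FGF7 from fibroblasts acts on epithelium, ERBB3 and its ligand neuregulin take part in fibroblast control of surfactant synthesis, and PDGF signals guide alveolar myofibroblasts and vessel walls.

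All levels below are log2 processed signal minus the 75th percentile of the same array, and differences are clone minus normal on that scale. Levels are not compared between genes, because probes differ in brightness. The 10 spike-in RNAs gave higher values in clones on this scale (median difference 0.67), so that a shift of all lung transcripts together is not measured. The 75th percentile itself lay between 10.10 and 10.49 in clones and between 10.58 and 10.89 in normal animals (log2 signal). The 4 clones lay on 1 slide in 1 scan and the 4 normal animals on another, and slide, scan and group cannot be told apart. The clones died of respiratory failure and the normal animals were killed healthy, so cloning, illness and manner of death cannot be told apart either. The labels give 4 days for all 8, while the clones died within their first 4 days, so exact age may also differ. Y-linked DDX3Y and USP9Y RNA was detected in clones 2, 3 and 4 and in 0 of 4 normal animals, so sex was not separated from group. Over all kept probes clones 2 and 4 correlated at 0.988, as closely as normal animals with each other (0.984 to 0.989), while clone 1 or clone 3 correlated with any other array at 0.907 to 0.953. The surfactant genes SFTPC, SFTPB, SFTPA1, ABCA3 and LAMP3 were well above background on all 8 arrays, as lung tissue should show. P-values measure the spread between these animals.

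No signalling gene passed the test at an adjusted p of 0.05 (0 of 48 by limma, Benjamini-Hochberg over all 35636 kept probes), where 0.182% of all genes did. At an unadjusted p under 0.05, 3 members were higher in clones (TGFB3, TGFB1 and SMAD1), against 6.35% of all genes, and 6 were lower (FGF13, ERBB3, TGFBR2, PDGFB, SFRP2 and FZD10), against 6.59% of all genes. These are 6.25% and 12.5% of the 48 members. The ranges of clones and normal animals were apart in 8 members, 16.7%, against 9.84% of all genes. Clones lay above in 3 of them, TGFB3, TGFB1 and SMAD2 (5.03% of all genes), and below in 5, FGF13, FGF16, TGFBR2, ERBB3 and PDGFB (4.81% of all genes). Over the 48 members the median difference was 0.06, with 28 positive and 20 negative, and over all genes it was -0.02. With eBayes trend and robust settings 1 member was called, FGF13, where 0.517% of all genes were. With array weights 20 members were called, 41.7% of them, where 31.3% of all genes were.

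**Figure D1:**
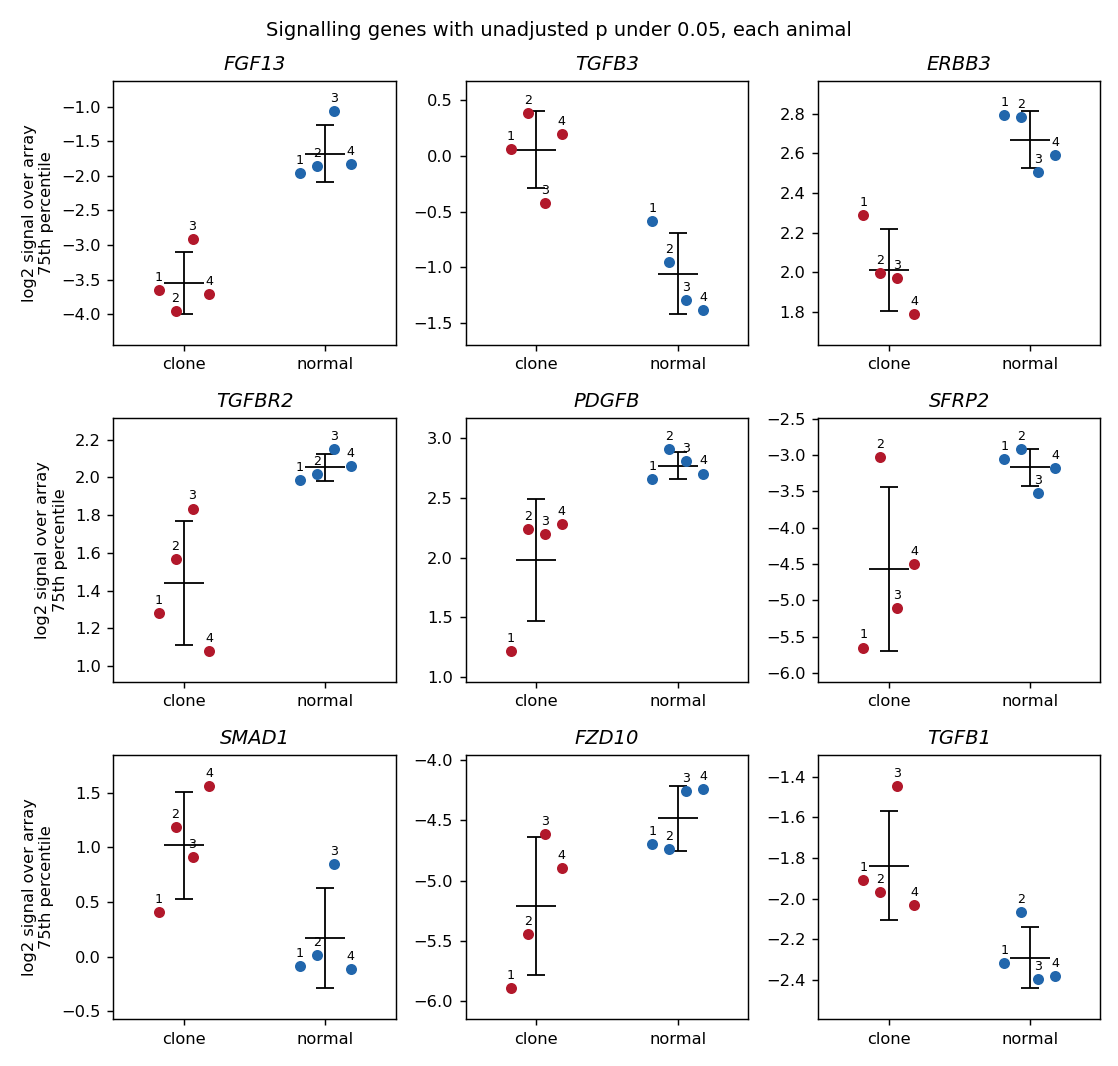
Log2 signal over the array's 75th percentile (y axis, a scale of its own in each panel) of the 9 signalling genes with an unadjusted p under 0.05, with each animal as a numbered point, clones left and normal animals right, and the mean and SD as black lines. FGF13, ERBB3, TGFBR2 and PDGFB lay lower in every clone than in any normal animal and TGFB3 and TGFB1 higher, while SFRP2, SMAD1 and FZD10 overlapped.

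Among the FGF genes, FGF13 stood closest to the threshold. FGF13 is an X-linked member of the intracellular FGF homologous factors, which are not secreted and bind voltage-gated sodium channels and microtubules. It measured -3.65, -3.95, -2.91 and -3.71 in clones 1 to 4, against -1.96, -1.86, -1.07 and -1.82 in normal animals 1 to 4. All 4 clones lay below all 4 normal animals, by 0.95 at the nearest pair. The means were -3.55 ± 0.45 in clones and -1.68 ± 0.41 in normal animals (SD, n = 4 each), a log2 difference of -1.88 (SE 0.29, 95% interval -2.54 to -1.21, limma adjusted p = 0.0619), or 3.67-fold lower in clones. Its second probe differed by -1.25 (limma adjusted p = 0.112). The part of sex in this X-linked gene's difference was not tested. With 1 animal left out the difference lay between -2.09 and -1.67 and its limma adjusted p between 0.0248 and 0.220. FGF13 passed without clone 1, where 7.18% of all genes were called, and without clone 3, where 1.28% were, and in none of the 6 other such fits. The related intracellular factors FGF12 and FGF11 differed by -0.30 and 0.22, and both overlapped between the groups.

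The secreted FGFs went different ways in different clones. FGF18, a mesenchymal ligand of lung and cartilage growth, measured -0.27, 2.65, 1.78 and 3.16 in clones 1 to 4, against 0.36, 0.79, 0.71 and 0.53 in normal animals 1 to 4. Clones 2, 3 and 4 lay above every normal animal and clone 1 below every one, and the difference of 1.24 had an interval of -0.25 to 2.72 (limma adjusted p = 0.470). Without clone 1 it was 1.94 (limma adjusted p = 0.0228), in the fit where 7.18% of all genes were called and 8.33% of the members, with FGF13, ERBB3 and PDGFRB as the others. Without clone 4 it was 0.79 (limma adjusted p = 0.679). Its second probe differed by 1.24 over the 4 clones as well. FGF7, also called keratinocyte growth factor, measured -0.98, -0.19, -2.49 and -1.45 in clones, against -0.56, -0.54, -0.33 and -0.76 in normal animals. Clone 2 lay above all normal animals and clones 1, 3 and 4 below them. The difference was -0.73 (95% interval -1.71 to 0.25, limma adjusted p = 0.523) and, with 1 animal left out, between -1.09 (without clone 2) and -0.33 (without clone 3). The second FGF7 probe differed by -0.89.

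FGF1, a ligand of all FGF receptors, measured -5.05 in clone 1 and between -3.46 and -2.48 in the other 3 clones, against -2.96 to -2.85 in normal animals. The 4 normal animals spanned 0.11 and the 4 clones 2.56, and a second FGF1 probe had the opposite sign of difference (0.08 against -0.60). Without clone 1 the FGF1 difference was -0.0808. FGF16, another X-linked ligand, lay between -5.73 and -5.18 in clones and between -5.16 and -4.99 in normal animals, a non-overlapping but small difference of -0.31 (limma adjusted p = 0.511). FGF2, the basic FGF of matrix and vessels, differed by 0.28 (limma adjusted p = 0.544), and its 4 other probes had the same sign, between 0.01 and 0.31. FGF4, known from the early embryo, differed by 0.05 with overlapping groups.

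Of the FGF receptors FGFR1, FGFR3 and FGFR4 were measured, and the 3 had adjusted p-values between 0.813 and 0.978 (limma). FGFR4 measured -3.66, 1.59, 0.12 and 1.39 in clones 1 to 4, against -0.05, 0.88, 1.16 and 0.43 in normal animals 1 to 4. Clone 1 was 3.62 below the lowest normal animal and clones 2 and 4 were above the highest, the widest SD of any member in either group (2.44 in clones, 0.53 in normal animals). The difference was -0.75 with all clones and 0.43 without clone 1. FGFR3, which marks growth plates and epithelium, was not well above background in clone 1 (-7.44) and lay between -5.26 and -4.34 in the other clones, against -5.75 to -5.27 in normal animals. FGFR1, the main mesenchymal receptor, ranged from 3.81 in clone 1 to 5.61 in clone 3, against 4.33 to 4.69 in normal animals. All 3 receptors were thus lowest in clone 1.

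The FGF pathway list held 7 measured feedback and output genes, none of which passed by limma (1 higher and 1 lower at an unadjusted p under 0.05). SPRY2, an inhibitor induced by FGF signals, measured 0.31, 0.96, 0.53 and 0.53 in clones, against 1.13, 1.41, 0.90 and 1.05 in normal animals. Of the clones, 3 lay below every normal animal (difference -0.54, limma adjusted p = 0.303). DUSP6, the ERK phosphatase that FGF signals also induce, lay between 3.82 and 4.28 in clones and between 3.20 and 3.87 in normal animals (difference 0.48, limma adjusted p = 0.355). These output genes therefore differed in sign.

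**Figure D2:**
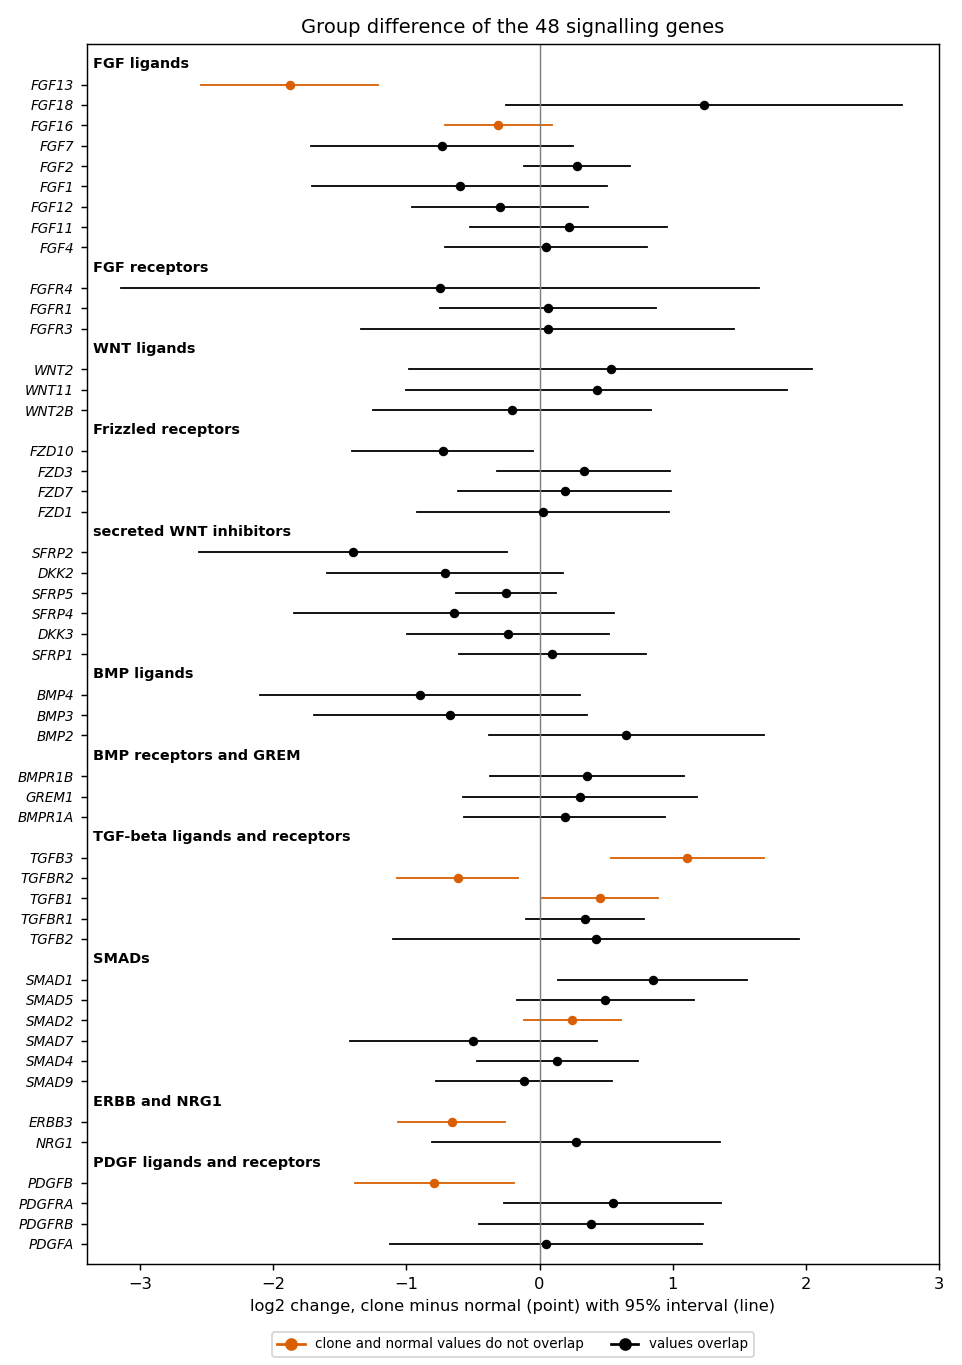
Log2 difference, clone minus normal, of the 48 signalling genes (points) with 95% intervals of the fit (lines), grouped by role, n = 4 animals a group. The intervals of 9 genes leave out 0 before adjustment, FGFR4 has the widest interval, and the 8 genes in orange have clone and normal values that do not overlap.

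None of the measured WNT genes passed the threshold in the main limma fit. With array weights added to that fit WNT2, WNT2B, FZD7, FZD10 and SFRP5 were called, where 31.3% of all genes were. The co-receptors LRP5 and LRP6 and the relay proteins DVL1, DVL2 and DVL3 had no matched probe and were not analysed here. The ligands WNT2, WNT11 and WNT2B had adjusted p-values between 0.785 and 0.891 (limma). WNT2, a mesenchymal WNT needed for lung specification in mice, measured -2.33, -0.66, -4.19 and -1.48 in clones 1 to 4, against -3.04, -2.55, -2.28 and -2.92 in normal animals 1 to 4. Clones 2 and 4 lay above and clone 3 below all normal animals, and the difference was 0.53 with all clones, 1.21 without clone 3, 0.30 without clone 4 and 0.0316 without clone 2. WNT11, a WNT of cell polarity, spanned -3.58 (clone 3) to -0.48 (clone 4) in clones and -3.38 to -1.99 in normal animals. WNT2B was highest in clone 1 at 2.34, while clones 2 and 4 at 0.40 and 0.14 lay below the normal range of 0.81 to 1.62. Clones 2 and 4 were thus the higher clones in WNT2 and WNT11 and the lower in WNT2B.

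Among the Frizzled receptors FZD10 had the smallest p. It measured -5.89, -5.44, -4.61 and -4.89 in clones, against -4.70, -4.73, -4.26 and -4.24 in normal animals, and clone 3 was within the normal range (difference -0.73, SE 0.30, limma adjusted p = 0.347). FZD3, FZD7 and FZD1 differed by 0.33, 0.19 and 0.03. FZD1 measured 0.40 in clone 1 and between 2.07 and 2.31 in the other 3 clones, against 1.33 to 2.00 in normal animals. Its 4 other probes lay between -0.45 and 0.37, so that even its sign depends on the probe.

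Of 6 secreted WNT inhibitors 5 had a negative difference. These proteins bind WNT ligands (the SFRP family) or the LRP co-receptors (DKK). SFRP2, expressed by fibroblasts, measured -5.65, -3.02, -5.11 and -4.50 in clones 1 to 4, against -3.05, -2.92, -3.53 and -3.18 in normal animals 1 to 4. Clone 2 sat among the normal animals and the other 3 lay below them, giving a difference of -1.40 (SE 0.51, 95% interval -2.55 to -0.24, limma adjusted p = 0.288). A second SFRP2 probe differed by -1.20. DKK2 and SFRP4 differed by -0.71 and -0.64, both lowest in clone 3 and -0.36 and -0.20 without it, and SFRP5 by -0.25 with 3 clones below every normal animal. DKK3, a divergent member with no clear action on WNT receptors, differed by -0.24 and SFRP1 by 0.10. None of these passed (limma adjusted p between 0.288 and 0.929).

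Companion genes of the WNT pathway gave 16 measured members, of which 0 passed by limma and 1 was lower at an unadjusted p under 0.05. That gene was RSPO1, a secreted amplifier of WNT signals, at -4.71, -4.96, -4.72 and -4.46 in clones, against -4.11, -3.41, -3.94 and -4.43 in normal animals. The groups did not overlap, though clone 4 and normal animal 4 nearly met (difference -0.74, limma adjusted p = 0.250). RNF43, which removes Frizzled receptors from the cell surface, differed by -0.30 (limma adjusted p = 0.658).

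BMP ligands were set apart by clone 3, the clone that also deviated most over all genes. In it 27.5% of all genes lay more than 1 log2 unit from the normal mean, against 12.6 to 19.7% in the other clones. BMP4, made by distal lung epithelium and mesenchyme, measured 0.06, -0.43, -2.63 and -0.40 in clones 1 to 4, against 0.09, 0.14, 0.07 and -0.10 in normal animals 1 to 4. Normal animals spanned 0.24, clone 1 lay among them and clone 3 lay 2.53 below the lowest. The difference was -0.90 (95% interval -2.10 to 0.30, limma adjusted p = 0.520), between -1.20 (without clone 1) and -0.30 (without clone 3) with 1 animal left out, and its 2 other probes gave -1.12 and -0.85. BMP3, an antagonist-like BMP, was also lowest in clone 3 (-3.97, with the other clones between -2.33 and -1.91, against -2.30 to -1.50 in normal animals). BMP2, which acts in vessel walls, was instead highest in clone 3 at 0.97, with the other clones between -1.17 and -0.30 and normal animals between -1.36 and -0.69.

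On their brightest probes the receptors BMPR1A and BMPR1B and the antagonist GREM1 had small positive differences (0.19, 0.36 and 0.30, limma adjusted p between 0.692 and 0.857). BMPR1A lay between -1.39 in clone 1 and 0.33 in clone 3, against a span of 0.18 over the normal animals. Both other kept probes of BMPR1B gave larger differences, 1.24 and 1.43 (limma adjusted p = 0.111 and 0.106), than its brightest one. On each, every clone lay above every normal animal, at -5.41 to -4.55 against -6.69 to -6.00 and -3.73 to -2.58 against -4.98 to -4.43. Of 12 measured BMP companions 0 passed by limma, with 1 higher and 1 lower at an unadjusted p under 0.05. FSTL1, a secreted BMP antagonist needed for lung maturation in mice, lay between 4.06 and 4.39 in clones and between 3.56 and 3.95 in normal animals (difference 0.54, limma adjusted p = 0.240). ACVR1, a type I receptor for BMPs, lay between -2.72 and -2.17 in clones and between -2.13 and -1.73 in normal animals (difference -0.53, limma adjusted p = 0.275). Neither gene overlapped between the groups.

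Among the TGF-beta ligands and receptors, TGFB3 was higher and TGFBR2 lower in every clone on their brightest probes. TGFB3, a ligand whose loss impairs lung maturation in mice, measured 0.06, 0.38, -0.42 and 0.20 in clones 1 to 4, against -0.58, -0.95, -1.30 and -1.39 in normal animals 1 to 4. The groups were 0.16 apart at the nearest, and the means were 0.05 ± 0.34 in clones and -1.06 ± 0.37 in normal animals (SD, n = 4 each). The difference was 1.11 (SE 0.25, 95% interval 0.53 to 1.69, limma adjusted p = 0.141), or 2.16-fold. The 2 other TGFB3 probes gave 0.77, with overlap between the groups, and 0.95, without overlap. Leaving out 1 animal at a time gave 1.00 to 1.27.

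TGFBR2, the type II receptor that binds TGF-beta first, measured 1.28, 1.57, 1.84 and 1.08 in clones 1 to 4, against 1.99, 2.02, 2.15 and 2.06 in normal animals 1 to 4. Normal animals spanned 0.16 and every clone lay below them (difference -0.61, SE 0.20, limma adjusted p = 0.245). A second probe gave -0.28, with overlap between the groups. TGFB1, the most studied ligand of fibrosis, lay between -2.03 and -1.44 in clones and between -2.39 and -2.07 in normal animals, without overlap (difference 0.45, SE 0.19, limma adjusted p = 0.358, and -0.00371 with normexp background correction). The type I receptor TGFBR1 differed by 0.34. TGFB2 measured -1.83, 0.75, 0.58 and 1.81 in clones, against -0.12, -0.41, 0.27 and -0.12 in normal animals, with clone 1 below and the other clones above the normal range (difference 0.42, and between -0.0688 without clone 4 and 1.14 without clone 1).

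Of 11 measured genes of TGF-beta activation and output 9 had a positive difference, 0 passed by limma, and 3 were higher and 1 lower at an unadjusted p under 0.05. Over all genes 48.3% had a positive difference, 6.35% were higher and 6.59% lower at that p. INHBA, the activin A subunit, measured -0.28, -0.20, -0.82 and -0.43 in clones 1 to 4, against -1.50, -1.95, -1.68 and -1.29 in normal animals 1 to 4 (difference 1.18, SE 0.22, limma adjusted p = 0.0901). CCN2, a matricellular protein induced by TGF-beta, measured 2.98, 2.85, 1.48 and 3.02 in clones, against 3.91, 4.12, 4.17 and 3.90 in normal animals (difference -1.44, SE 0.34, limma adjusted p = 0.156). Neither gene overlapped between groups, with INHBA above in all 4 clones and CCN2 below in all 4. Without clone 1, where 7.18% of all genes were called, both passed, at a limma adjusted p of 0.0331 for INHBA and 0.0474 for CCN2, and likewise without clone 3 (1.28% of all genes), at 0.0343 and 0.0271. Neither passed without clone 2 (0.184 for INHBA and 0.240 for CCN2) or without clone 4 (0.213 and 0.242, limma adjusted p).

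Among the SMADs, SMAD1, which carries BMP signals, had the smallest p. It measured 0.41, 1.18, 0.91 and 1.56 in clones 1 to 4, against -0.08, 0.02, 0.85 and -0.11 in normal animals 1 to 4. Clone 1 lay below normal animal 3, the one normal animal far from the others (difference 0.85, SE 0.31, limma adjusted p = 0.295). SMAD5, which also serves BMP receptors, spanned 0.08 over the normal animals (-2.48 to -2.39) and 1.46 over the clones (-2.73 to -1.26), with clone 1 below and the others above. SMAD2, of the TGF-beta branch, lay between 0.32 and 0.71 in clones and between 0.14 and 0.31 in normal animals, a small difference without overlap (0.25, limma adjusted p = 0.566). The common partner SMAD4 differed by 0.13 and SMAD9 by -0.12. The inhibitory SMAD7 was the member just inside the detection limit, with 4 arrays well above background (1 clone and 3 normal animals), at -7.08 to -5.57 in clones and -6.56 to -5.21 in normal animals. Just outside it, FGF20 was well above background on 3 arrays (1 clone and 2 normal animals), at -8.46 to -5.08 in clones and -8.55 to -5.47 in normal animals.

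ERBB3, the kinase-impaired neuregulin receptor of epithelium, was lower in every clone on its brightest probe. It measured 2.29, 1.99, 1.97 and 1.79 in clones 1 to 4, against 2.79, 2.79, 2.51 and 2.59 in normal animals 1 to 4. The means were 2.01 ± 0.21 in clones and 2.67 ± 0.14 in normal animals (SD, n = 4 each), and the difference was -0.66 (SE 0.18, 95% interval -1.06 to -0.26, limma adjusted p = 0.188), or 1.58-fold lower in clones. Of its other probes 1 gave -1.14, without overlap between the groups, and 1 gave -0.08, with overlap. ERBB3 was called without clone 1 (-0.75, limma adjusted p = 0.0318), where 7.18% of all genes were called, and with no other animal left out. Its ligand NRG1 measured -1.78, -4.08, -2.30 and -2.63 in clones, against -2.80, -3.21, -3.44 and -2.43 in normal animals, with overlap and with its second probe opposite in sign (0.27 and -0.27).

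Epithelial markers differed unevenly beside ERBB3. The mean of 5 alveolar type II markers lay between 4.56 and 5.87 in clones and between 5.03 and 5.12 in normal animals, with 3 of 5 differences positive. The mean of 3 ciliated cell markers lay between -3.71 and -2.25 in clones and between -2.66 and -1.59 in normal animals, with 3 of 3 negative, and the secretory cell gene SCGB1A1 between 0.34 and 2.37 against 2.18 to 3.91. Of 5 alveolar type I markers 2 had a positive difference and their mean lay between 3.57 and 4.00 in clones and between 3.66 and 4.08 in normal animals. Within that list HOPX was lower in every clone (difference -1.19, limma adjusted p = 0.119) and PDPN differed by 0.98 (limma adjusted p = 0.357). All of these markers were well above background on all 8 arrays. Their part in the ERBB3 difference was not tested, and in whole lung fewer cells of a type and less RNA per cell cannot be told apart. Companion genes of the EGF family had 4 measured members, all with positive differences and none past an unadjusted p of 0.05. The ERBB ligand BTC differed by 0.34 and the ERBB inhibitor ERRFI1 by 0.60 (limma adjusted p = 0.582 and 0.604).

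PDGFB, which endothelial cells release to recruit pericytes, was lower in every clone while its receptors were not. PDGFB measured 1.21, 2.24, 2.19 and 2.28 in clones 1 to 4, against 2.66, 2.91, 2.81 and 2.71 in normal animals 1 to 4. Every clone lay below the normal range and clone 1 far below it (difference -0.79, SE 0.26, 95% interval -1.39 to -0.20, limma adjusted p = 0.251). A second probe differed by -1.18. The receptors PDGFRB of pericytes and PDGFRA of fibroblasts were above the normal range in clones 2, 3 and 4 and below it in clone 1. PDGFRA measured 0.49, 2.24, 1.34 and 1.67 in clones, against 0.61, 1.06, 1.20 and 0.67 in normal animals (difference 0.55, limma adjusted p = 0.566). Its 5 other probes had the same sign, from 0.65 to 0.89. PDGFRB differed by 0.38 with all clones, by 0.77 without clone 1 and by 0.21 without clone 3 (limma adjusted p = 0.714, 0.0472 and 0.813). In the fit without clone 1, 7.18% of all genes were called. PDGFA, the epithelial ligand, ranged from 0.77 in clone 1 to 3.52 in clone 3, against 1.75 to 2.28 in normal animals.

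Endothelial markers, 5 genes all well above background on all arrays, had a mean between 0.11 and 1.57 in clones and between 1.46 and 2.14 in normal animals, with 4 of 5 differences negative and clone 1 the lowest. Within that list CA4 had the largest difference (-2.60, limma adjusted p = 0.136), with every clone below every normal animal. KDR, EDNRB, CDH5 and PECAM1 differed by -0.84, -0.67, -0.06 and 0.01, and each overlapped between the groups. Fibroblast markers, 6 genes, had a mean between 3.24 and 4.20 in clones and between 3.12 and 3.57 in normal animals, with 4 of 6 positive. Proliferation genes, 3 measured, lay between -2.90 and 0.58 in clones and between -4.88 and -2.82 in normal animals, all positive, with clone 1 the highest. Macrophage markers, 4 measured and all negative, lay between 1.74 and 3.82 in clones and between 3.81 and 4.41 in normal animals. Markers of T and NK cells, 4 of 4 negative, had means that did not overlap, from -0.54 to 0.17 in clones and from 0.49 to 1.23 in normal animals. CD8A had the largest difference (-2.45, or 5.45-fold lower in clones, limma adjusted p = 0.175). CD3E, NKG7 and CD3D differed by -0.48, -0.47 and -0.03, and each overlapped between the groups. Neutrophil markers, 5 of 5 negative, lay between -1.76 and 0.47 in clones and between -0.04 and 0.53 in normal animals. The part of these cells in the PDGFB, TGFB3 and PDGF receptor values was not tested. Of the PDGF companions PDGFD differed by 0.75 and PDGFRL by -0.51 (limma adjusted p = 0.298 and 0.456).

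The members varied far more between clones than between normal animals, as did most genes. The SD was larger in clones in 46 of 48 members (95.8%, against 91.1% of all genes), with FGF11 and TGFB3 as the exceptions. The median ratio of clone SD to normal SD was 2.91 over the members and 3.20 over all genes. It was 20.0 for FGF1, 17.7 for SMAD5 and 11.4 for BMP4, members whose normal animals lay within 0.24 of each other. On the other kept FGF1 probe, however, the SD was 0.306 in clones and 0.305 in normal animals. For FGF13 the ratio was 1.09 and for TGFB3 0.94, so the differences of FGF13 and TGFB3 came with like spread in both groups.

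**Figure D3:**
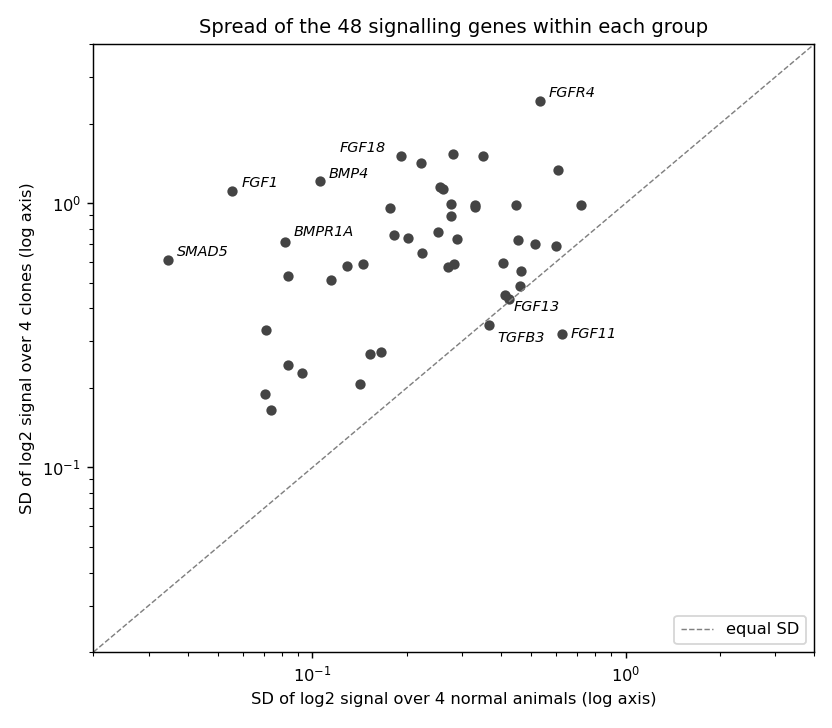
SD of the log2 signal over the 4 clones (y axis) and over the 4 normal animals (x axis) for the 48 signalling genes, both axes logarithmic, with the dashed line at equal SD. All points but FGF11 and TGFB3 lie above the line, and FGFR4 has the largest SD.

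Clone 1 differed from the other clones in direction. Against the range of the 4 normal animals, clone 1 had 29 of 48 members below and 7 above, while over all genes it had 36.8% below and 40.0% above. Clones 2, 3 and 4 had 16, 16 and 13 members below and 24, 24 and 22 above, which is 33.3, 33.3 and 27.1% below and 50, 50 and 45.8% above. Over all genes these clones had 38.0, 41.3 and 36.1% below and 33.8, 39.1 and 36.6% above. The median deviation of the members from the normal mean was -0.44 in clone 1 and 0.15, 0.21 and 0.24 in clones 2, 3 and 4, against 0.02, -0.03, -0.01 and -0.00381 over all genes in clones 1 to 4. On their brightest probes the receptors stood out in clone 1: 12 of 14 lay below every normal animal and 1, FZD3, above. In clones 2, 3 and 4 there were 4, 4 and 3 receptors below and 10, 8 and 9 above. The other kept probes of FGFR1, FGFR4, BMPR1A, TGFBR2, ERBB3 and PDGFRB also had clone 1 below. The 2 other kept BMPR1B probes instead had clone 1 above every normal animal. FZD1, FZD3, FZD7, PDGFRA and TGFBR1 each had another probe with clone 1 within the normal range. Of 6 SMADs clone 3 had 5 above and 0 below, where 39.1% of all genes lay above and 41.3% below in that clone. These counts describe single animals and were made after the values were seen.

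**Figure D4:**
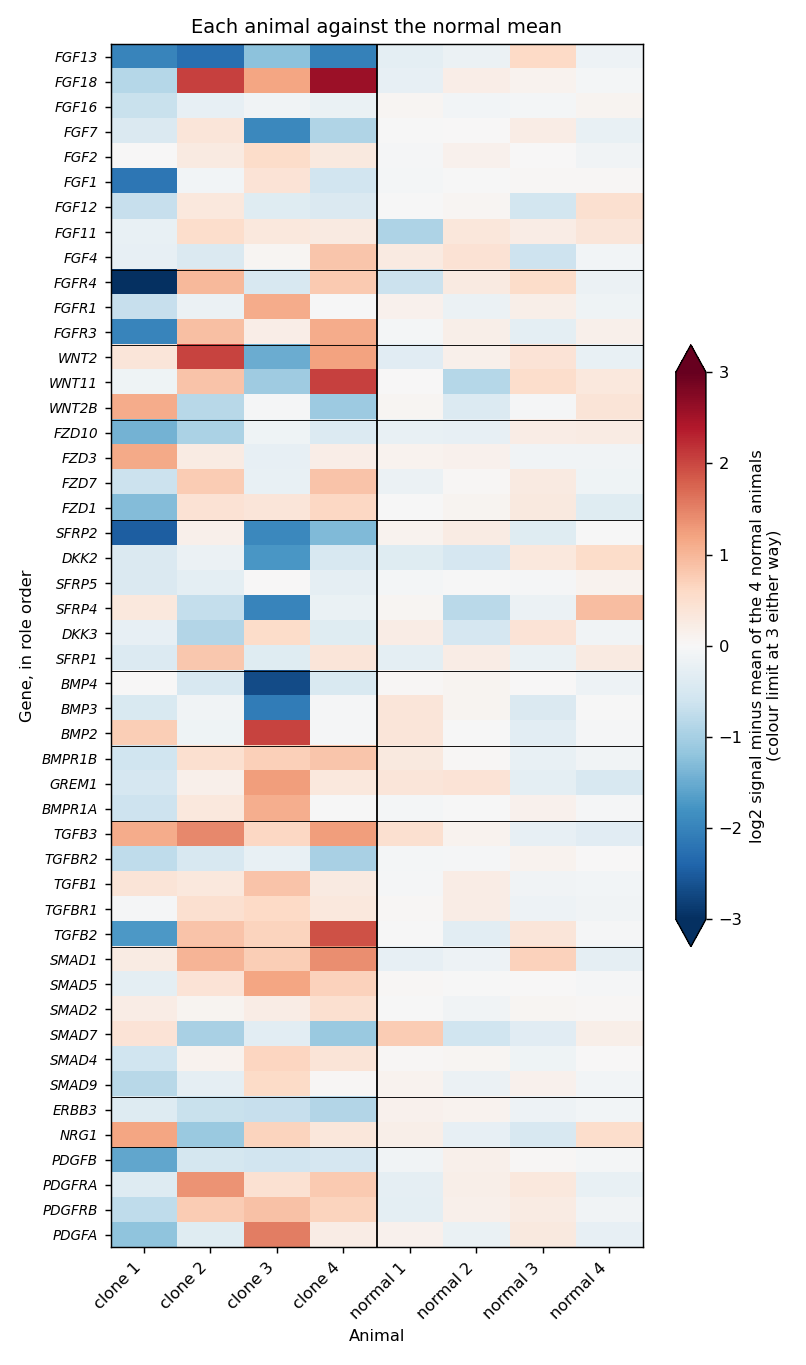
Log2 signal of each animal (columns) minus the mean of the 4 normal animals for the 48 signalling genes (rows in role order), red above and blue below the normal mean, with colour saturating at 3. FGF13, ERBB3 and PDGFB are blue in all 4 clones and TGFB3 red in all 4, clone 1 is blue in most receptors, and BMP4 and BMP3 are darkest in clone 3.

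The probes of a gene mostly had the same sign. Of 32 members with more than 1 kept probe, 23 had all probes of one sign, and 42 of 54 other probes had the sign of the brightest. The members with probes of both signs were FGF1, FGF4, FGFR1, FZD1, FZD3, NRG1, SFRP1, SMAD4 and WNT2B. The 9 genes with a probe but below the detection limit were FGF5, FGF6, FGF20, WNT1, WNT7A, WNT8A, WNT16, BMP10 and BMP15, most of them genes of the early embryo, heart or ovary.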

How the data were processed

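Per the file headers, the arrays were read with Agilent Feature Extraction (10.7 per the submitters' processing notes), and the processed intensity is background-subtracted and not normalized between arrays. The authors' deposited table holds log2 values whose columns share a 75th percentile of 10.54 and a median of 7.89. How they were normalized is not stated in the labels. Probes called numbered 60 from that table and 60 with quantile normalization, so these 2 alternatives are close to each other. The deposited columns correlated with the log2 processed signal at 0.999477 or more. Here control spots and 2 to 21 outlier spots an array were left out, no spot was saturated, and spots of a probe were averaged. Probe accessions were matched without versions to bovine RefSeq genes (ARS-UCD2.0): 23492 of 43653 probes obtained a symbol. The design names another build, so no coordinates are given, and no probe sequences were used. TGFB1I1, TGFBR3L and TGFBRAP1 were not counted as members. Group differences came from limma 3.58.1 in R 4.3.3 (lmFit, eBayes, group as sole term, 2-sided) over probes well above background on at least 4 of 8 arrays, with Benjamini-Hochberg adjustment over all of them. The fit was tried on simulated data with 1 pooled spread for both groups, unlike these data, where clones varied more. It recovered 9 of 50 changes of 1 log2 unit and 34 of 50 of 2 log2 units, with 12 false among 146 calls. Up to 3 members per role with the smallest p, FGF7, ERBB3 and 2 genes of each companion list were named by rule; other members are described by values. Members, lists and tests were chosen with earlier results of these data known. Alternatives were other normalizations, background corrections, filters and spread models, the authors' table, a replicate block, all probes of a gene and leaving out each animal. The number of arrays limits the precision.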

Additional observations from a re-analysis of the deposited data

Results flagged for a closer look

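In 6 of 96 groups of 4 animals, 1 animal lay far from the other 3, a share near the 5% of groups that chance gives. Among clones all 3 were clone 1: PDGFB at 1.21 with the others between 2.19 and 2.28, PDGFRB at -2.57 with the others between -1.13 and -0.90, and FZD1 at 0.40 with the others between 2.07 and 2.31. Among normal animals, animal 3 was high in FGF13, at -1.07 with the others between -1.96 and -1.82, and in SMAD1, at 0.85 with the others between -0.11 and 0.02. Normal animal 1 was low in FGF11, at -5.74 with the others between -4.58 and -4.44. Clone 1 was also the lowest clone in the endothelial markers and the highest in the proliferation markers, and the part of either in its values was not tested.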

How the results depend on the processing

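The count of changed probes over the whole array was 63 and ranged from 17 to 2565 with 1 animal left out (2565 without clone 1, 449 without clone 3). It was 0 with normexp background correction and 75th percentile centring (2282 probes at an unadjusted p under 0.05), 25 with normexp and quantile normalization, 17 where only probes detected on all 8 arrays were tested, 146 with trend and robust settings, 11155 with array weights and 13 with the replicate block. Signalling genes called numbered 0 to 4 with 1 animal left out, 1 with trend and robust settings and 20 with array weights. Their count at an unadjusted p under 0.05, 9, ranged from 6 to 17 with 1 animal left out and was 5 with normexp and 75th percentile centring and 27 with array weights. The share of all probes at that p moved alongside: it was 13.2%, lay between 8.22% and 26% with 1 animal left out, and was 6.4% with that normexp setting and 44% with array weights. The cause of these shifts was not tested. The replicate block called 0 signalling genes; same-numbered animals had deviations correlated between -0.20 and 0.10, so the numbers do not pair them.

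Of 48 members 26 kept their sign under every alternative run, among them FGF13, FGF18, FGF7, TGFB3, TGFBR2, ERBB3, PDGFB, SFRP2 and SMAD1, and 28 were called under none. FGF13 lay between -2.11 (array weights) and -1.15 (normexp and quantile normalization), with a limma adjusted p between 0.00173 and 0.416. The normexp settings were chosen after seeing that the files hold median but no mean spot signals, and with 75th percentile centring they moved the median of all probes to -0.32. There the differences became -0.70 for FGF11, -0.68 for FGF4, -0.72 for FGFR3, -0.20 for WNT11, -0.20 for FZD3, -0.10 for FZD7, -0.29 for SFRP1, -0.15 for BMPR1B, -0.51 for GREM1, -0.00371 for TGFB1, -0.35 for TGFBR1, -0.19 for NRG1, -0.0746 for BTC and -0.32 for PDGFD. With normexp and quantile normalization FGF2 was -0.0108, FGFR1 -0.11, FZD1 -0.0376 and PDGFA -0.0461. With quantile normalization FGFR1 was -0.12, FZD1 -0.0180 and PDGFA -0.0486, and in the authors' table -0.12, -0.0174 and -0.0482. With array weights FGFR4 was 0.72, FGFR1 -0.0572, NRG1 -0.50 and PDGFA -0.0362. The mean of all probes of a gene, adjusted over genes, gave -0.0194 for FGF4, -0.0257 for FGFR1, -0.0605 for FZD1 and -0.00973 for SFRP1. With 1 animal left out the sign turned in FGFR4 (-1.32 to 0.43), SMAD9 (-0.35 to 0.12), NRG1 (-0.0317 to 0.74), FGFR3 (-0.29 to 0.74), FZD7 (-0.0354 to 0.47), FZD1 (-0.17 to 0.47), SFRP1 (-0.14 to 0.27), FGFR1 (-0.29 to 0.31), GREM1 (-0.0159 to 0.57), BMPR1A (-0.11 to 0.46), SMAD4 (-0.0345 to 0.37), PDGFA (-0.45 to 0.47), FGF4 (-0.21 to 0.21), WNT11 (-0.11 to 0.92), WNT2B (-0.65 to 0.0845), TGFB2 (-0.0688 to 1.14) and FGF11 (-0.0937 to 0.37). Genes near background, FGFR3, SMAD7 and FGF20 among them, are limited by signal.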

Other observations

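Single clones also held far values in companion genes, chosen here after their values were seen. FGFBP1, which releases FGFs from the matrix, measured 1.14 in clone 1 and between -5.88 and -4.84 in clones 2 to 4, against -5.59 to -3.51 in normal animals. AREG, an EGF receptor ligand, measured 2.41 in clone 1, between -3.53 and -0.60 in the other clones and between -2.40 and -1.13 in normal animals. HBEGF, another such ligand, was highest in clone 3 at -1.90, with the other clones between -5.12 and -4.44 and normal animals between -5.43 and -4.02. None of these 3 genes passed between the groups (limma adjusted p between 0.833 and 0.901).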
